A study of Mus musculus with 6 samples.

Results

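The receptors through which macrophages bind antibody, and the adaptor and kinase that carry their signal, were followed in unstimulated bone marrow-derived macrophages (BMDMs) of WT mice and of mice with a conditional deletion of *Scd2*, a stearoyl-CoA desaturase that makes monounsaturated fatty acids. They were 7 genes of the 40481 in the count table, matched by symbol: the activating IgG receptors *Fcgr1*, *Fcgr3* and *Fcgr4*, the inhibitory IgG receptor *Fcgr2b*, the signalling chain *Fcer1g*, the neonatal Fc receptor *Fcgrt* and the kinase *Syk*. None was chosen on its level. BMDMs are marrow cells of the tibia and femur grown into macrophages in medium conditioned by CMG cells, and RNA was taken without LPS or infection from 3 WT and 3 Scd2-KO samples, with 1 poly(A)-selected library each. In the Scd2-KO mice, floxed *Scd2* was deleted by Cre recombinase expressed from the lysozyme M (*Lyz2*) locus, which is active in myeloid cells, so deletion takes place while the cells differentiate. Male and female mice aged 2 to 5 months were used, but the sex of each sample, whether a sample is 1 mouse or a pool, and whether the WT mice carried Cre or a floxed allele are not stated in the labels or the study's methods.

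An IgG-coated particle is bound by Fcγ receptors, and what follows depends on the motif in the cytoplasmic tail of the receptor or of the chain it travels with. FcγRI, FcγRIII and FcγRIV, the products of *Fcgr1*, *Fcgr3* and *Fcgr4*, have no motif of their own and pair with the FcRγ chain encoded by *Fcer1g*, which carries an immunoreceptor tyrosine-based activation motif (ITAM). Src-family kinases phosphorylate both ITAM tyrosines, *Syk* docks on them, and phagocytosis and cytokine production follow. FcγRIIb, the product of *Fcgr2b*, instead carries an inhibitory motif (ITIM) that recruits the lipid phosphatase SHIP-1. FcRn, the product of *Fcgrt*, works inside the cell, where with β2-microglobulin it returns endocytosed IgG to the surface.

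The opposite signs of the receptors rest on a few codons, so the coding stretches of both motifs are shown, from the GENCODE transcripts of GRCm38 with the tyrosine codons in capitals. The ITAM lies at chr1:171229880-171230081 on the minus strand, over exons 4 to 5 of the 5 of transcript Fcer1g-201, with an intron between them, and holds a pair of tyrosines. The ITIM lies at chr1:170961059-170961100 on the minus strand, in exon 8 of 8 of Fcgr2b-201, and holds 1.
Fcer1g ITAM: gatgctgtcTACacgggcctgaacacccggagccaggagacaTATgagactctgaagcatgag
Fcgr2b ITIM: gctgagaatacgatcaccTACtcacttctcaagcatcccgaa

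*Fcgr2b*, *Fcgr4*, *Fcgr3* and *Fcer1g* lie, in this order, on chromosome 1 within 276 kb, whereas *Fcgr1* is on chromosome 3, *Fcgrt* on chromosome 7 and *Syk* on chromosome 13. The inhibitory *Fcgr2b* and the activating *Fcgr3* share part of their sequence. The longest identical run of their coding sequences was 129 bases, at chr1:170966674-170968081 in *Fcgr2b* and at chr1:171054167-171057792 in *Fcgr3*, both on the minus strand and over exons 3 and 4 with the intron left out. It is shown because reads falling within it cannot be given to 1 of these genes, and neither the labels nor the methods say how the authors' counting treated such reads.
Fcgr2b and Fcgr3: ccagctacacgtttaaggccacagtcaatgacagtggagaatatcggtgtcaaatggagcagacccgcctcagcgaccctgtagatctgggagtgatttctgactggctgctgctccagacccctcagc
Of all stretches of 50 bases in the transcripts of *Fcgr3*, 10.2% also occurred in *Fcgr2b*, and 4.48% of those of *Fcgr2b* occurred in *Fcgr3*. In all, 6.72% of the stretches of *Fcgr2b* occurred in another gene, over 47 genes. No stretch of this length in *Fcgr1*, *Fcgr4*, *Fcer1g*, *Fcgrt* or *Syk* occurred in another gene. The other pairs of IgG receptors had identical runs of 9 to 14 bases at most.

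The libraries held between 46285176 and 57629638 counts on genes, and TMM factors were between 0.979 and 1.02. Counts were expressed as CPM, the counts scaled by the TMM-corrected size of each library, and compared with edgeR's quasi-likelihood test, with p-values adjusted over 14778 genes by the Benjamini-Hochberg method (FDR) and a threshold of 0.05. *Scd2* itself was at 66.9, 77.8 and 62.7 CPM in WT and at 59.5, 38.0 and 39.8 CPM in Scd2-KO libraries, so all Scd2-KO values lay below all WT values, but the log2 fold change of -0.59 ± 0.195 (SE, n = 3 per genotype) had an FDR of 0.10. These counts span the whole gene, so the loss of the floxed part could not be checked from them, and Scd2-KO is used as the label of the libraries. The library labelled Scd2-KO replicate 1 lay nearest to WT, and without it the log2 fold change was -0.83. All 10 macrophage markers were present, and 7 of them were called lower and 1 higher, beside 7.84% and 9.65% of all genes tested. Their summed levels were 39200 to 40200 CPM in WT and 22800 to 23300 CPM in Scd2-KO libraries. *Lyz2*, the locus that carries Cre, accounted for much of that sum and fell to 39.7% of its WT level. Without it the sums were 16900 to 17100 CPM in WT and 13900 to 14300 CPM in Scd2-KO libraries. All 10 NK and T cell markers and all 8 mast cell and basophil markers, cells that also use these receptors, stayed below 1 CPM in every library, and *Ncr1*, *Prf1*, *Gzma*, *Mcpt4* and *Tpsb2* were at 0. Of the 8 B cell markers, 5 stayed below 1 CPM, and *Ighm* made up most of their sum of 64.9 to 131 CPM in WT and 94.7 to 125 CPM in Scd2-KO libraries. Of the 5 B cell markers tested, 2 were called higher and 0 lower.

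None of the 7 genes was called higher or lower in Scd2-KO macrophages by edgeR (0 of 7), where 17.5% of all genes tested, and 21.4% of those with a mean of at least 10 CPM, were called. All 7 passed the filter on low counts, with at least 3320 counts in every library. At an unadjusted p below 0.05 there was 1, *Fcgr4*, against 30.2% of all genes. DESeq2 (16.9% of all genes called) and limma-voom (17%) each also called 0, and limma-voom with quality weights (30.5%) called 1, again *Fcgr4*. The values of the genotypes overlapped for each of the 7 genes, whereas for 34.9% of all genes tested they did not. The median log2 fold change of the 7 genes was 0.01, and that of all genes tested was 0.0039.

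**Figure D1:**
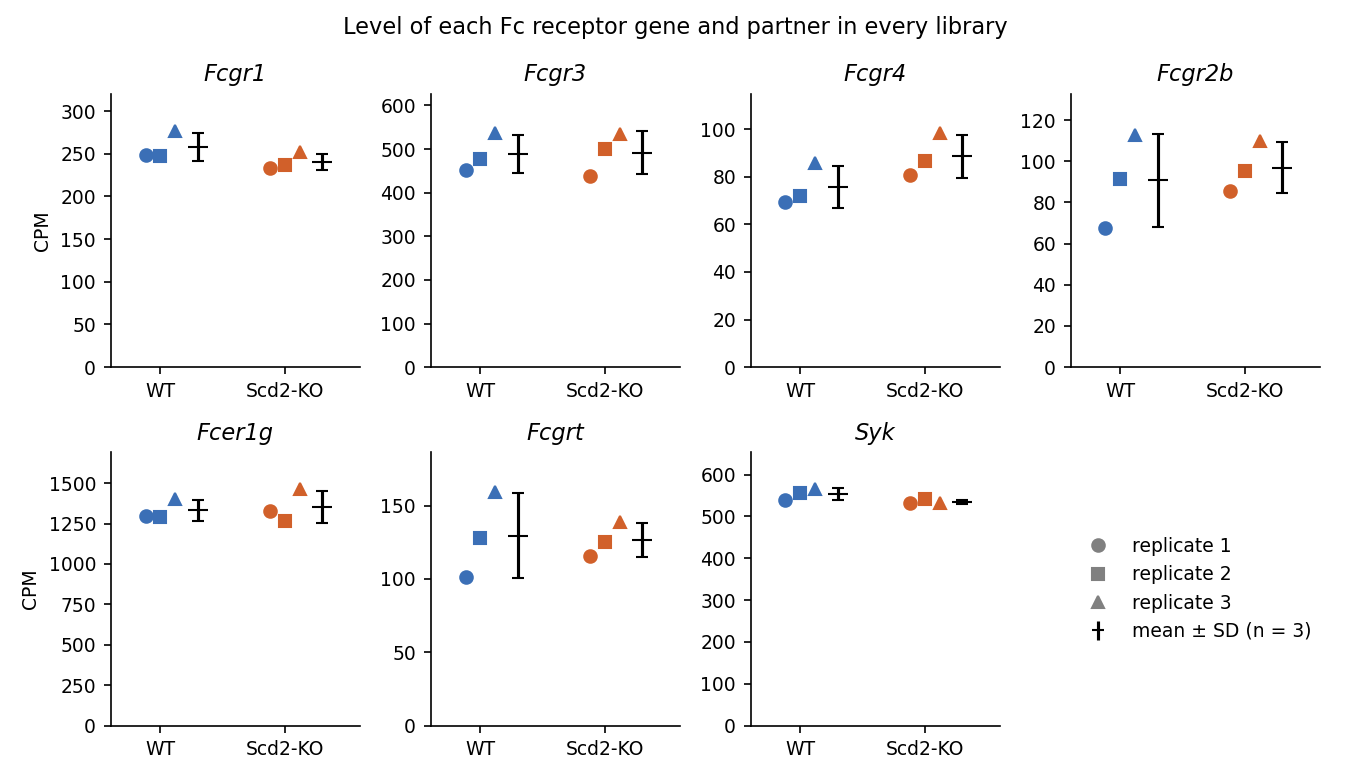
Level of each of the 7 genes in CPM (vertical axis, from 0) in the 3 WT libraries (blue) and the 3 Scd2-KO libraries (orange), with circles, squares and triangles for replicates 1, 2 and 3 and black bars for the mean ± SD. The genotypes overlap in every panel, *Fcgr4* has 2 of 3 Scd2-KO libraries above every WT library, and *Fcgr2b* and *Fcgrt* have the longest WT bars relative to their means.

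*Fcgr1* (ENSMUSG00000015947, chr3:96282909-96293969, minus strand) encodes the high-affinity receptor FcγRI, which can hold monomeric IgG. Its level was 248.7, 247.4 and 276.6 CPM in WT and 233.5, 237.4 and 251.6 CPM in Scd2-KO libraries. Of the Scd2-KO libraries, 2 lay below every WT library and the third lay among them. The log2 fold change was -0.10 ± 0.0634 (SE, n = 3 per genotype, FDR = 0.333, edgeR), with a 95% interval from -0.233 to 0.0391.

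*Fcgr3* (ENSMUSG00000059498, chr1:171051174-171064935, minus strand) encodes FcγRIII, a low-affinity receptor for immune complexes. It was at 450.9, 478.0 and 536.4 CPM in WT and at 439.2, 500.8 and 535.3 CPM in Scd2-KO libraries. The ranges were nearly the same. Its log2 fold change was 0.01 ± 0.0824 (SE, FDR = 0.955, edgeR), with a 95% interval from -0.167 to 0.187. When the counts of *Fcgr3* and *Fcgr2b* were added into 1 feature because of their shared sequence, the log2 fold change of the sum was 0.02 ± 0.0908 (SE, FDR = 0.897, edgeR).

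*Fcgr4* (ENSMUSG00000059089, chr1:171018920-171029761, plus strand) encodes FcγRIV, which binds IgG2a and IgG2b. Its level was 69.4, 72.0 and 85.6 CPM in WT and 80.9, 86.4 and 98.4 CPM in Scd2-KO libraries. Of the Scd2-KO libraries, 2 lay above the highest WT library and 1 lay below it. The log2 fold change was 0.23 ± 0.0884 (SE, n = 3 per genotype), with a 95% interval from 0.0363 to 0.419, and the FDR of 0.0995 (edgeR) missed the threshold. Without WT replicate 3, the highest WT value, it passed the threshold at 0.325 (FDR = 0.0158, edgeR), a setting in which 15.1% of all genes did, and without Scd2-KO replicate 3 it was 0.146 (FDR = 0.315, edgeR), with 13.4% of all genes called. Monocytes and neutrophils also express *Fcgr4*. Among all genes tested, 9.65% were called higher and 7.84% lower. Of the 9 monocyte markers, 6 were called higher and 1 lower, with summed levels of 142 to 158 CPM in WT and 156 to 222 CPM in Scd2-KO libraries. These sums came mostly from *Ccr2*, *F13a1* and *Vcan*. Mean *Ccr2* rose from 47.85 CPM in WT to 114.6 CPM in Scd2-KO libraries, whereas *F13a1* fell from 53.4 to 31.8 CPM. *Vcan* was at 39.2 CPM in WT and 22.3 CPM in Scd2-KO libraries and was not called. Of the 12 neutrophil markers, 5 were called higher and 1 lower, with sums of 183 to 192 CPM in WT and 161 to 193 CPM in Scd2-KO libraries, and 5 of them, including the defining marker *Ly6g*, stayed below 1 CPM in every library. Most of these sums came from *Csf3r*, which was called lower (164.4 ± 6.16 CPM in WT, 134.9 ± 12.0 CPM in Scd2-KO libraries, SD, n = 3). The 5 called higher were *Ngp*, *S100a9*, *Ltf*, *S100a8* and *Mpo*, at 3.35, 3.13, 2.73, 1.96 and 1.93 times their WT means. The part of such cells in the *Fcgr4* values was not tested, and in bulk samples a change in the number of cells of a type cannot be told apart from a change in RNA per cell.

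*Fcgr2b* (ENSMUSG00000026656, chr1:170958617-170976547, minus strand) encodes the inhibitory receptor. It was at 67.8, 91.4 and 113 CPM in WT and at 85.4, 95.1 and 110 CPM in Scd2-KO libraries. All Scd2-KO values lay within the WT range. The log2 fold change was 0.10 ± 0.207 (SE, FDR = 0.811, edgeR), and its 95% interval from -0.424 to 0.615 was the widest of the 7. Expressed as a fold, that interval runs from 0.745 to 1.53.

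*Fcer1g* (ENSMUSG00000058715, chr1:171229572-171234365, minus strand), the chain shared by the activating receptors, was at 1299, 1291 and 1403 CPM in WT and at 1329, 1264 and 1461 CPM in Scd2-KO libraries. The lowest and the highest values were both from Scd2-KO libraries. The log2 fold change was 0.02 ± 0.0714 (SE, FDR = 0.874, edgeR), with a 95% interval from -0.132 to 0.175.

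*Fcgrt* (ENSMUSG00000003420, chr7:45092990-45103851, minus strand) was at 101.5, 128.1 and 159.3 CPM in WT and at 116.0, 125.1 and 138.7 CPM in Scd2-KO libraries. As with *Fcgr2b*, all Scd2-KO values lay within the WT range. The log2 fold change was -0.03 ± 0.167 (SE, FDR = 0.920, edgeR), with a 95% interval from -0.439 to 0.370.

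*Syk* (ENSMUSG00000021457, chr13:52583173-52648792, plus strand) was at 539.1, 555.6 and 565.7 CPM in WT and at 532.6, 541.3 and 531.0 CPM in Scd2-KO libraries. The Scd2-KO values were close together, and 2 of them lay below every WT value. The log2 fold change was -0.05 ± 0.058 (SE, FDR = 0.620, edgeR). Its 95% interval was the narrowest of the 7, from 0.887 to 1.05 as a fold.

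**Figure D2:**
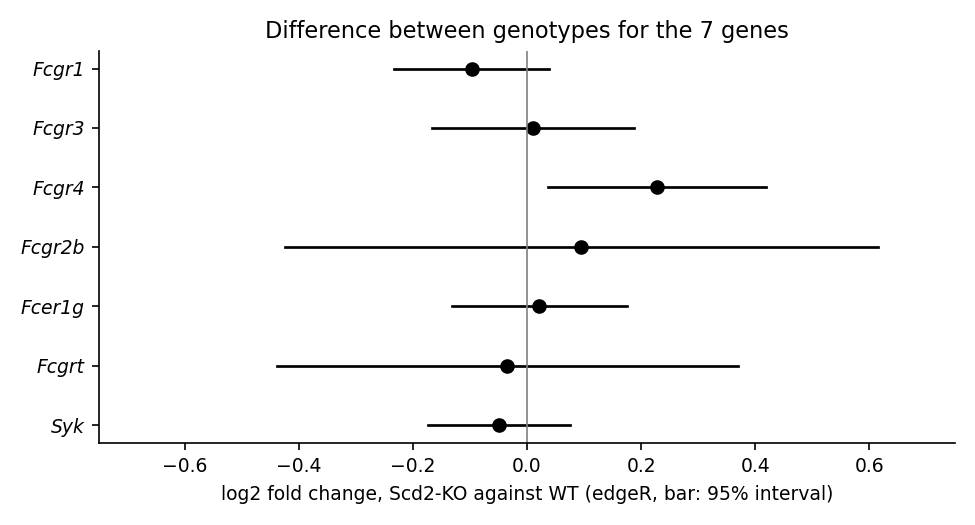
Log2 fold change of each of the 7 genes, Scd2-KO against WT (horizontal axis), with points for the edgeR estimates and bars for their 95% intervals (n = 3 per genotype). Only the bar of *Fcgr4*, from 0.0363 to 0.419, does not include 0, and the bars of *Fcgr2b* and *Fcgrt* are the widest.

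Levels of different genes were compared per kilobase of exon. In WT, *Fcer1g* was highest at 1523 ± 71.8 CPM per kb (SD, n = 3), followed by *Fcgr3* at 281.4 ± 25.2 and *Fcgr1* at 99.5 ± 6.37 CPM per kb. Next came *Fcgrt* at 61.7 ± 13.8, *Fcgr4* at 60.2 ± 6.92 and *Syk* at 59.1 ± 1.44 CPM per kb, which lay within each other's spread. *Fcgr2b* was lowest at 15.7 ± 3.9 CPM per kb. In Scd2-KO libraries the order was *Fcer1g* (1546 ± 115 CPM per kb), *Fcgr3* (283.3 ± 28), *Fcgr1* (93.0 ± 3.67), *Fcgr4* (70.5 ± 7.12), *Fcgrt* (60.2 ± 5.43), *Syk* (57.1 ± 0.592) and *Fcgr2b* (16.7 ± 2.15). There *Fcgr4* stood above *Fcgrt*, and *Fcgrt* above *Syk*, by less than the sum of their SDs. The places in the middle depend on the length used, since with the longest coding transcript *Syk*, for which all exons together are far longer than that transcript, moved from place 6 to place 3 in WT at 103.2 ± 2.51 CPM per kb. The FcRγ transcript thus exceeded the summed transcripts of its 3 activating receptors per kb in every library, by 3.62, 3.45 and 3.32 times in WT and by 3.73, 3.22 and 3.45 times in Scd2-KO libraries.

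The balance of activating to inhibitory receptors was read as a ratio of counts within each library, which needs no scaling between libraries. Counts grow with transcript length, so these ratios compare libraries and not the levels of different genes. *Fcgr1* to *Fcgr2b* was 3.67, 2.71 and 2.45 in WT and 2.73, 2.50 and 2.28 in Scd2-KO libraries. *Fcgr3* to *Fcgr2b* was 6.65, 5.23 and 4.75 in WT and 5.14, 5.27 and 4.86 in Scd2-KO libraries. *Fcgr4* to *Fcgr2b* was 1.02, 0.788 and 0.758 in WT and 0.947, 0.909 and 0.894 in Scd2-KO libraries. In each of the 3 ratios the genotypes overlapped, and WT replicate 1 gave the highest value of all 6 libraries. On the log2 scale the differences, Scd2-KO minus WT, were -0.214, -0.110 and 0.110. Their exact two-sided permutation p values were 0.5, 0.8 and 0.4, or 0.75, 0.8 and 0.75 after Benjamini-Hochberg adjustment over the 3 ratios, and the smallest p that 3 libraries against 3 allow is 0.1. This test could therefore not pass a threshold of 0.05, and its p values do not show that the ratios were alike. The 3 activating receptors together stood to *Fcgr2b* as 11.3, 8.73 and 7.96 in WT and as 8.82, 8.67 and 8.04 in Scd2-KO libraries. Per kilobase of exon this ratio was 35.1, 27.1 and 24.8 in WT and 27.6, 27.3 and 25.4 in Scd2-KO libraries. That of *Fcgr4* alone was 4.72, 3.63 and 3.49 in WT and 4.37, 4.19 and 4.12 in Scd2-KO libraries. Without WT replicate 1, the log2 differences in the ratios of *Fcgr1*, *Fcgr3* and *Fcgr4* were -0.0441, 0.029 and 0.246. Without WT replicate 3 they were -0.336, -0.214 and 0.0285.

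Ratios between the activating receptors were computed after the values of *Fcgr4* had been seen and were therefore not tested. *Fcgr4* to *Fcgr1* was 0.279, 0.291 and 0.309 in WT and 0.346, 0.364 and 0.391 in Scd2-KO libraries, so these values did not overlap, and the difference was 0.325 on the log2 scale. *Fcgr4* to *Fcgr3* was 0.154, 0.151 and 0.160 in WT and 0.184, 0.173 and 0.184 in Scd2-KO libraries, again without overlap, with a difference of 0.22. The levels of 34.9% of all single genes tested did not overlap either, and no such share is given for ratios. As a share of the 4 IgG receptors per kb, *Fcgr4* made up 13.1%, 12.9% and 13.5% in WT and 15.3%, 14.8% and 15.6% in Scd2-KO libraries. The share of *Fcgr3* was 61.6% ± 0.352 in WT and 61.1% ± 1.07 in Scd2-KO libraries (SD, n = 3). For *Fcgr1* it was 21.8% ± 0.795 and 20.1% ± 1.08, and for *Fcgr2b* it was 3.40% ± 0.569 and 3.60% ± 0.157.

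**Figure D3:**
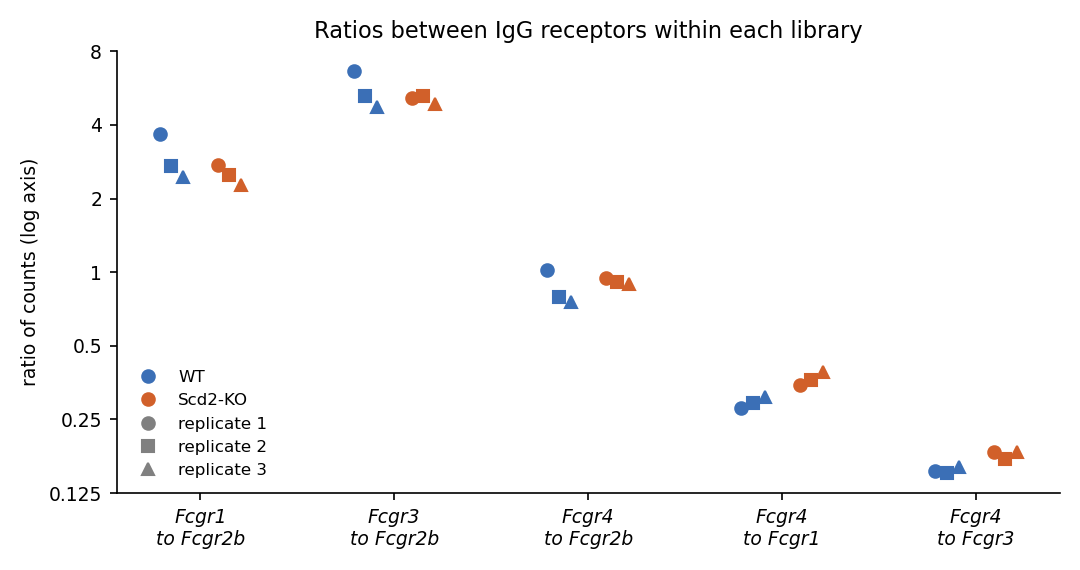
Ratios of counts between IgG receptors within each library (vertical log axis), for WT (blue) and Scd2-KO (orange) libraries, with circles, squares and triangles for replicates 1, 2 and 3. The genotypes overlap in the 3 ratios to *Fcgr2b* and do not overlap in the ratios of *Fcgr4* to *Fcgr1* (0.279 to 0.309 in WT, 0.346 to 0.391 in Scd2-KO) and of *Fcgr4* to *Fcgr3*. The ratios between activating receptors were chosen after the values of *Fcgr4* were seen and were not tested.

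The 7 genes differed in how far replicates lay apart. The coefficient of variation of *Fcgr2b* was 24.9% among WT and 12.8% among Scd2-KO libraries, at percentiles 99 and 94.1 of the 8192 genes with a mean of at least 10 CPM. For *Fcgrt* it was 22.3% among WT and 9.03% among Scd2-KO libraries, and for *Fcgr4* it was 11.5% and 10.1%. *Syk* stood at the other end with 2.43% and 1.04%, at percentiles 18.6 and 2.61. The medians over the 8192 genes were 4.88% in WT and 5.59% in Scd2-KO libraries. The highest WT library exceeded the lowest 1.67 times for *Fcgr2b*, 1.57 times for *Fcgrt* and 1.05 times for *Syk*, so a change of a given size was more easily resolved for *Syk*. In both genotypes the library numbered 3 had the highest level of *Fcgr1*, *Fcgr3*, *Fcgr4*, *Fcgr2b*, *Fcer1g* and *Fcgrt*, but the numbers did not pair the libraries over all genes. *Ighm*, the IgM heavy chain of B cells, which also express *Fcgr2b*, had the same order of libraries, at 51.9, 91.1 and 117 CPM in WT and at 77.3, 78.2 and 110 CPM in Scd2-KO libraries. The other tested B cell markers, *Cd79b*, *Cd79a*, *Cd22* and *Ms4a1*, did not have this order in both genotypes. *Cd79b* was at 1.83, 3.12 and 2.54 CPM in WT and at 5.93, 4.12 and 4.99 CPM in Scd2-KO libraries. *Ighm* was chosen after its values were seen, and its part in the spread of *Fcgr2b* was not tested.

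**Figure D4:**
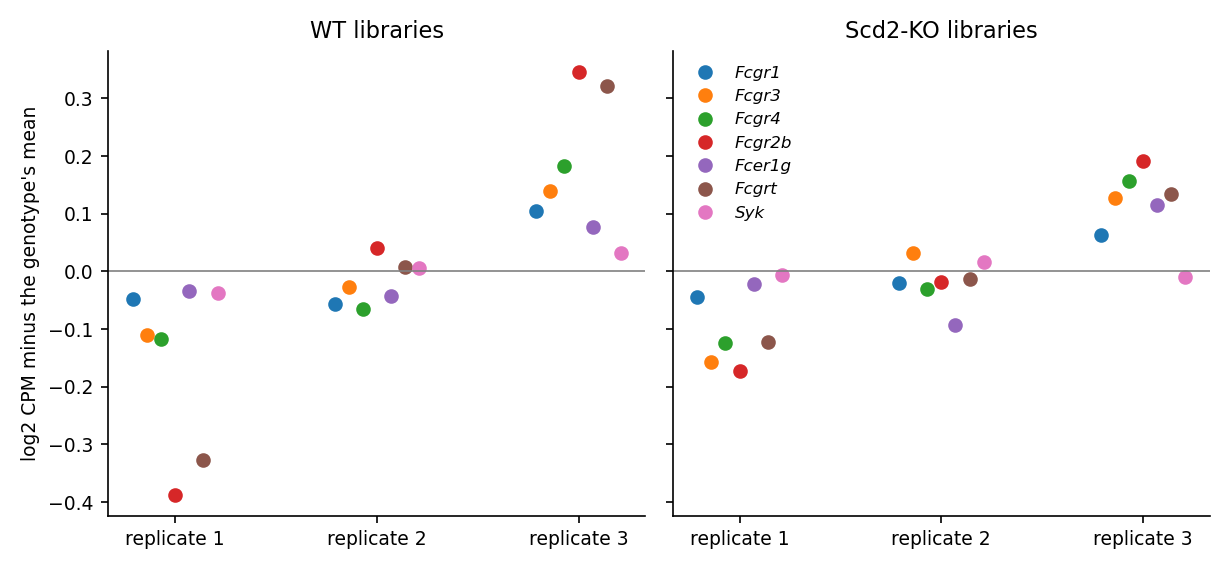
Log2 CPM of each of the 7 genes minus the mean of its genotype (vertical axis) by replicate, with WT libraries on the left and Scd2-KO libraries on the right and 1 colour per gene. *Fcgr2b* spans -0.387 to 0.346 in WT and -0.173 to 0.191 in Scd2-KO libraries, while *Syk* stays near 0.

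Genes whose log2 CPM followed a receptor most closely over the 6 libraries were picked from 8191 genes by the highest Pearson r, as a description only, since the highest of so many values over 6 libraries is high by selection. For *Fcgr1* they were *1810013L24Rik* (r = 0.977) and *Nufip1* (r = 0.974), for *Fcgr3* *Mib1* (r = 0.992) and *Ubr3* (r = 0.984), and for *Fcgr4* *Pmp22* (r = 0.994) and *Usp38* (r = 0.99). *Fcgr2b* was followed by *Aplp2* (r = 0.994) and *Tbxas1* (r = 0.992), and *Fcgrt* by *Zfp408* (r = 0.992) and *Ap2a2* (r = 0.988). *Fcer1g* was followed by *Dazap2* (r = 0.995) and *Zfp329* (r = 0.974), and *Syk* by *Mapk14* (r = 0.994) and *Dapp1* (r = 0.984). None of these 14 genes was called by edgeR. They were picked for following genes that were not called, so this is no separate result. Among the 7 genes themselves, *Fcgr2b* and *Fcgrt* were most alike (r = 0.956).

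The promoter windows of the 4 IgG receptors, 250 bases before to 50 after the RefSeq start (GRCm38.p6), are shown because the macrophage factor PU.1 (*Spi1*) is known to act at Fcγ receptor promoters and its transcript differed between genotypes. A form of its site, GAGGAA on either strand (TTCCTC when read from the other), was searched and is in capitals. Other forms were not searched, so a window without these letters may still hold a site. The motif was chosen with these sequences in view. The windows lie at chr3:96293920-96294219 (*Fcgr1*), chr1:171059354-171059653 (*Fcgr3*) and chr1:170976022-170976321 (*Fcgr2b*) on the minus strand, and at chr1:171018676-171018975 (*Fcgr4*) on the plus strand.
Fcgr1: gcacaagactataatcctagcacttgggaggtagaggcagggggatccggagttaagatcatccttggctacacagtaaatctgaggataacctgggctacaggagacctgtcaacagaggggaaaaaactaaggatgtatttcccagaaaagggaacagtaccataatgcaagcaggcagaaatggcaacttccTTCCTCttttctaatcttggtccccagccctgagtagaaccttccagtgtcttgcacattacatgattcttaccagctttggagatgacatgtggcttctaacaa
Fcgr3: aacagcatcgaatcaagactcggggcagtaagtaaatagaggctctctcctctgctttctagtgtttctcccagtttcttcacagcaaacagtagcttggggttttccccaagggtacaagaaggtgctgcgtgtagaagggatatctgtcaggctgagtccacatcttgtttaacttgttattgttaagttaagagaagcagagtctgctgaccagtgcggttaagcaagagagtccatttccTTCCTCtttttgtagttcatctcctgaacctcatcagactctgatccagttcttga
Fcgr4: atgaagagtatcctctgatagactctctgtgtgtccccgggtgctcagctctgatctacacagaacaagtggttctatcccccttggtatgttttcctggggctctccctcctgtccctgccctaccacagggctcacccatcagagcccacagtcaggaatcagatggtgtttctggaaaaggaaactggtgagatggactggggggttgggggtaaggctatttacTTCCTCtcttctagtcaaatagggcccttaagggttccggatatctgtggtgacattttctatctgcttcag
Fcgr2b: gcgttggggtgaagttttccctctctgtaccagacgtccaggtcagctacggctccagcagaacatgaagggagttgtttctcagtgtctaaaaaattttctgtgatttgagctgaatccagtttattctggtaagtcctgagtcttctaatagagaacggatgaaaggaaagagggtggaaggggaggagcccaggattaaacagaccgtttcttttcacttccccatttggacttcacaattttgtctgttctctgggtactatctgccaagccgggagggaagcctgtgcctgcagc
The letters occurred once in the window of each activating receptor. Their first base was at position -55 from the start in *Fcgr1*, -6 in *Fcgr3* and -22 in *Fcgr4*. From another RefSeq start of *Fcgr3*, with its window at chr1:171059345-171059644, the position was -15. These letters were not in the window of *Fcgr2b*. They were not in the windows of *Fcer1g* and *Fcgrt* either, and were in 1 of the 2 windows of *Syk*. Of 32817 RefSeq promoter windows of this length, 28.3% held them, so a match is a description and not a binding site. *Spi1*, chosen after its values were seen, was at 811.6, 751.0 and 710.9 CPM in WT and at 677.3, 637.4 and 628.3 CPM in Scd2-KO libraries, with a log2 fold change of -0.23 ± 0.0674 (SE, FDR = 0.0323, edgeR). Within the 276 kb that hold *Fcgr2b*, *Fcgr4*, *Fcgr3* and *Fcer1g*, 7 other genes were tested. Of these, 3 were called, beside 17.5% of all genes tested. *Cfap126* was higher (log2 fold change 1.20, FDR = 5.07e-04, edgeR), at a mean of 1.24 CPM in WT and 2.85 CPM in Scd2-KO libraries. *Sdhc* was also higher (0.21, FDR = 0.0152, edgeR). *Nr1i3* was lower (-1.88, FDR = 0.048, edgeR) with 5 to 38 counts per library, and its values overlapped between genotypes. These 3 genes were named after their values were seen.

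The genes around the receptors were listed in 4 groups with earlier results of these data known, so their share of calls is a description. Of the 89 genes listed, 76 could be tested and 29 (38.2%) were called, 9 higher and 20 lower. Among all genes tested, 17.5% were called, 9.65% higher and 7.84% lower, and 21.4% of those with a mean of at least 10 CPM. The median log2 fold change of the 76 genes was -0.06. The difference in shares between these genes and the 7 was not tested. The count fell to 15 without Scd2-KO replicate 2 and to 16 without WT replicate 2, where 9.53% and 9.83% of all genes were called.

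Among 14 further antibody receptors and their partners, 8 were tested, 3 rose and 5 were not called, with a median log2 fold change of 0.22. *B2m*, the β2-microglobulin chain of FcRn and of MHC class I, was at 4749, 4122 and 4547 CPM in WT and at 5801, 5733 and 6540 CPM in Scd2-KO libraries. Every Scd2-KO value lay above every WT value, and the log2 fold change was 0.43 ± 0.0791 (SE, FDR = 0.00193, edgeR), while its partner *Fcgrt* gave -0.03. *Fcrl1*, an Fc receptor-like gene best known from B cells, rose from 11.3 ± 0.478 to 14.5 ± 0.536 CPM (SD, n = 3, FDR = 0.00975, edgeR), and without Scd2-KO replicate 2 its FDR was 0.0566. *Fcmr*, the IgM receptor, rose from 1, 4 and 2 counts in WT to 21, 36 and 44 counts in Scd2-KO libraries (FDR = 5.62e-04, edgeR). All these *Fcmr* levels were below 1 CPM, and it was named after its values were seen. Of the 5 B cell markers tested, 2 were called higher, *Cd79b* and *Cd79a*. *Cd79b* was at 1.83, 3.12 and 2.54 CPM in WT and at 5.93, 4.12 and 4.99 CPM in Scd2-KO libraries (FDR = 0.0026, edgeR), and *Cd79a* at 0.232 ± 0.00914 and 0.591 ± 0.133 CPM (SD, n = 3, FDR = 0.0228, edgeR). The other 3, *Ighm*, *Cd22* and *Ms4a1*, were not called. They gave log2 fold changes of 0.03, -0.09 and 0.65 (FDR = 0.970, 0.602 and 0.525, edgeR). The part of B cells in the rises of *Fcrl1* and *Fcmr* was not tested. *Trim21*, a cytosolic antibody receptor, gave a log2 fold change of 0.09 (FDR = 0.424, edgeR). *Fcrls*, named after its values were seen, was at 172.3, 221.3 and 286.8 CPM in WT and at 146.8, 147.3 and 175.2 CPM in Scd2-KO libraries. Its log2 fold change of -0.54 ± 0.198 (SE, FDR = 0.140, edgeR) was not called. The IgE receptor genes *Fcer1a*, *Ms4a2* and *Fcer2a*, together with *Pigr*, *Fcamr* and *Fcrl6*, had at most 12 counts in any library and were not tested.

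*Fcer1g* also serves C-type lectin and paired Ig-like receptors. Of 11 such receptors and related adaptors listed, 2 (*Pira6* and *Pira11*) were not matched in the table, 6 were tested, and 3 fell, with a median log2 fold change of -0.24. *Clec4n* encodes Dectin-2, which recognises fungal mannans and pairs with FcRγ. It was at 53.6, 53.1 and 62.8 CPM in WT and at 20.9, 24.9 and 31.5 CPM in Scd2-KO libraries, and its log2 fold change of -1.13 ± 0.144 (SE, FDR = 0.00121, edgeR) was the largest fall among the listed genes called. *Tyrobp*, the ITAM adaptor DAP12, fell from 1157 ± 58.3 to 1001 ± 5.01 CPM (SD, n = 3, log2 fold change -0.21, FDR = 0.0355, edgeR). With any 1 library left out its FDR was between 0.0599 and 0.140. *Hcst* encodes DAP10, which binds PI 3-kinase through a motif that is not an ITAM. It fell by 0.33 on the log2 scale (FDR = 0.0199, edgeR), and lost its call without WT replicate 1, WT replicate 2 or Scd2-KO replicate 2, with an FDR of up to 0.119. The FcRγ-paired receptors *Clec4d* (-0.28, FDR = 0.0899, edgeR), *Clec4e* (0.05) and *Pira2* (0.08) were not called, and were named after their values were seen.

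In the activating pathway downstream, 47 of 48 genes were tested, 4 rose and 13 fell, with a median log2 fold change of -0.05. Of the Src-family kinases that phosphorylate the ITAM, *Lyn* was at 182.7, 204.9 and 212.5 CPM in WT and at 149.1, 161.8 and 190.0 CPM in Scd2-KO libraries, with a log2 fold change of -0.26 ± 0.0861 (SE, FDR = 0.0541, edgeR). It passed the threshold under 8 of 17 alternative settings. *Fgr*, another of these kinases in myeloid cells, gave -0.06 (FDR = 0.707, edgeR). *Src*, at a lower level, fell from 12.6 ± 0.879 to 6.91 ± 0.686 CPM (log2 fold change -0.87, FDR = 6.77e-05, edgeR), and *Fyn* rose from 41.3 ± 1.93 to 51.9 ± 2.37 CPM (0.33, FDR = 0.00293, edgeR). Among adaptors, *Lat2*, a scaffold that *Syk* and Src-family kinases phosphorylate, was at 71.6, 68.9 and 65.0 CPM in WT and at 136.3, 128.5 and 130.3 CPM in Scd2-KO libraries, the largest rise in this group (0.94 ± 0.0604, FDR = 2.91e-07, edgeR). *Pik3ap1*, which links tyrosine kinases to PI 3-kinase, was at 431.3, 463.4 and 489.7 CPM in WT and at 295.2, 297.9 and 314.1 CPM in Scd2-KO libraries (-0.61 ± 0.0644, FDR = 2.26e-05, edgeR). *Blnk*, an adaptor phosphorylated by *Syk* and abundant in B cells, rose by 0.28 (FDR = 0.00732, edgeR). Of the 5 B cell markers tested, 2 were called higher and 3 were not called, and the part of B cells in the rise of *Blnk* was not tested. Of the 14 enzymes tested, such as PI 3-kinases and phospholipase Cγ, 0 rose and 3 fell, and of the 17 exchange factors and cytoskeletal genes 1 rose and 5 fell.

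In the inhibitory pathway, 15 of 16 genes were tested, 2 rose and 4 fell, with a median of -0.10. *Inpp5d*, which encodes the SHIP-1 recruited by FcγRIIb, was at 391.7, 381.6 and 387.0 CPM in WT and at 357.0, 355.6 and 369.8 CPM in Scd2-KO libraries. All Scd2-KO values lay below all WT values, but the log2 fold change of -0.10 ± 0.0565 was not called (SE, FDR = 0.254, edgeR). *Ptpn6*, the tyrosine phosphatase SHP-1, was at 381.5, 387.9 and 387.4 CPM in WT and at 324.4, 306.1 and 313.4 CPM in Scd2-KO libraries, and fell by 0.29 on the log2 scale (SE 0.0568, FDR = 0.00269, edgeR). *Ptpn11* (SHP-2) fell by 0.30 (FDR = 0.00393, edgeR), and *Dok3*, an adaptor that restrains immunoreceptor signals, fell by 0.25 (FDR = 0.00559, edgeR). *Cblb*, a ubiquitin ligase that targets activated receptors and kinases, rose from 76.5 ± 0.669 to 112.5 ± 8.34 CPM (SD, n = 3, log2 fold change 0.56, FDR = 4.52e-05, edgeR). *Ptpn22*, a phosphatase that acts on Src-family kinases and *Syk*, rose from 29.1 ± 0.447 to 41.9 ± 4.92 CPM (0.52, FDR = 4.95e-04, edgeR). Both pathways thus held genes that rose and genes that fell.

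**Figure D5:**
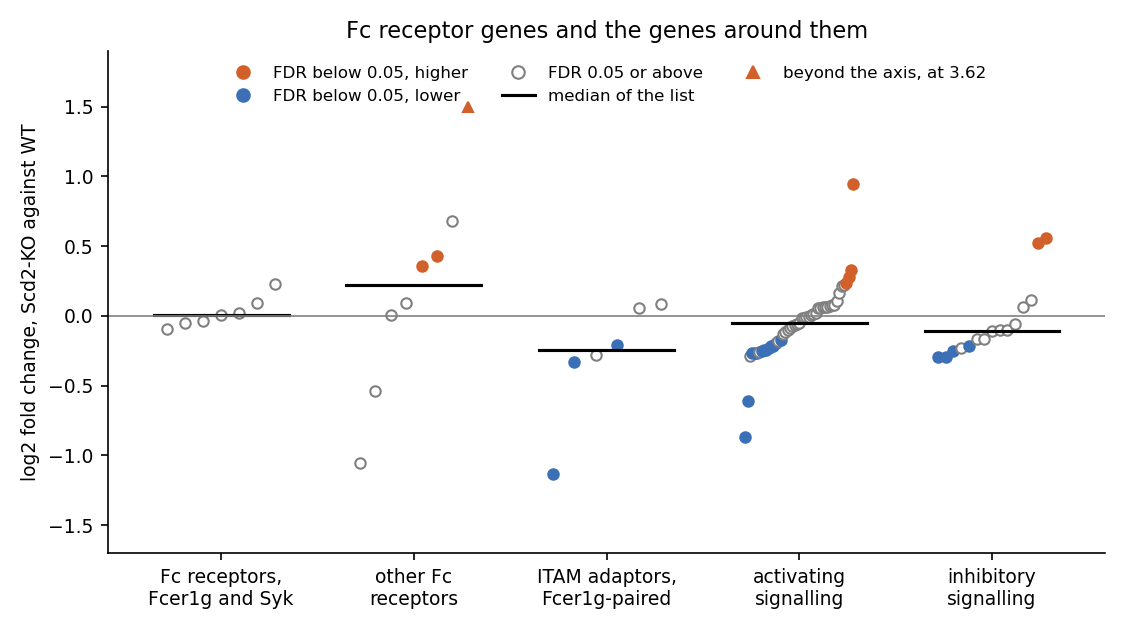
Log2 fold change, Scd2-KO against WT (vertical axis), of each tested gene in the 7 receptor and partner genes and in the 4 groups around them, with filled orange and blue points for genes called higher and lower, open points for genes not called and black lines for medians. All 7 points of the first group are open and 29 of 76 points in the other groups are filled, beside 17.5% of all genes tested. *Fcmr*, at 3.62, is drawn as a triangle at the edge of the axis.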

How the data were processed

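RNA was sequenced from 3 WT and 3 Scd2-KO samples of unstimulated BMDMs. Reads had been aligned by the authors with STAR to the mouse genome (GRCm38, Ensembl release 76), and raw counts of each gene in each library were deposited. Neither the labels nor the study's methods state how genes were counted (tool, strand, reads shared by genes). Their own comparison table, made with edgeR and limma (log2 fold changes, confidence limits, p-values), and its 6 columns of per-sample log2 values were not used.

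Of 40757 entries, 276 repeats of a gene were removed. Counts were tested with edgeR 4.0.16 (filterByExpr, TMM, robust glmQLFit, glmQLFTest; limma 3.58.1, R 4.3.3) on genotype alone. The test was checked on simulated counts. Libraries of a genotype differed by more than counting noise (chi-square per gene 10.4 to 31.9), and nothing states that samples are separate cultures or mice, so p-values measure the spread between these samples. Coordinates and exonic lengths are from GENCODE M21 (GRCm38), which held all 7 genes, and promoter windows from RefSeq (GRCm38.p6), which also held all 7.

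The 7 genes, the lists around them and the marker lists were chosen with earlier results of these data known. Named genes are the 7, *Scd2*, *Lyn*, *Fgr*, *Inpp5d*, *Ptpn6*, *Tyrobp*, *B2m* and *Trim21*, up to 5 called genes per list with the largest change and a mean of at least 1 CPM, and the 2 genes most alike each of the 7 (offset of 0.5 CPM before log2). The values of 1 further gene are not reported here. Dendritic cell markers summed to 3.04 to 4.64 CPM in WT and 4.22 to 5.52 CPM in Scd2-KO libraries. Alternatives were RLE and upper-quartile factors, DESeq2 1.42.0, limma-voom (plain, or weighting libraries by quality), other filters, halved counts, a replicate block, summed *Fcgr2b* and *Fcgr3*, other thresholds and leaving out libraries.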

Additional observations from a re-analysis of the deposited data

How the results depend on the processing

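Of the 7 genes, *Fcgr4* alone was called under any alternative setting (edgeR unless another tool is named). Its log2 fold change was 0.225 (FDR = 0.0198) with limma-voom and quality weights, 0.229 (FDR = 0.0106) when every gene with at least 1 count was tested (11.8% of all genes called), and 0.229 (FDR = 0.00943) with the replicate block, so that under each of these settings 1 of the 7 genes was called. With each library left out in turn, 0 to 1 of the 7 were called, and the log2 fold change ran from 0.146 to 0.325 for *Fcgr4*, from -0.055 to 0.084 for *Fcgr3*, from -0.077 to 0.284 for *Fcgr2b*, from -0.037 to 0.069 for *Fcer1g* and from -0.184 to 0.140 for *Fcgrt*. The near-zero values of *Fcgr3*, *Fcgr2b*, *Fcer1g* and *Fcgrt* thus changed sign, whereas *Fcgr1* (-0.129 to -0.044) and *Syk* (-0.068 to -0.034) kept theirs. *Fcer1g* was also at -0.023 with quality weights. *Fgr* ran from -0.148 to 0.051 with 1 library left out and was at 0.0062 without both libraries numbered 1, a setting chosen after seeing the data. The log2 differences in the ratios to *Fcgr2b* ran from -0.336 to -0.0441 for *Fcgr1*, from -0.214 to 0.029 for *Fcgr3* and from 0.0285 to 0.246 for *Fcgr4*.

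With 1 library left out, 15 to 27 of the 76 surrounding genes were called, 7 to 10 higher and 8 to 17 lower, against 29, 9 and 20 with all libraries. Of all genes, 9.53% to 17% were called with 1 library left out, and 17.5% with all libraries. At an FDR of 0.01, 15 of the 76 surrounding genes were called, of which 7 lower, and no share of all genes is given at that threshold. With an absolute log2 fold change above 2 there was 1, which was higher, and 0 lower, beside 0.663% of all genes. Of the genes named, *Lat2*, *Pik3ap1*, *Src*, *Cblb*, *Ptpn22*, *Clec4n*, *B2m*, *Fyn*, *Blnk*, *Ptpn6*, *Ptpn11* and *Dok3* were called under all 17 settings. Same-numbered libraries correlated in their deviations from the genotype means with r of 0.104, -0.0544 and 0.0832, so the numbers were not taken to pair the samples, and the replicate block called 2974 genes (20.1%). Causes of these changes were not tested. The 7 genes had at least 3320 counts in every library, whereas *Fcmr* and *Nr1i3* rest on few counts.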
